A study of Mus musculus with 2 samples.

Results

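Heat shock and unfolded protein response genes were examined in sorted TCRαβ+CD8αα+ intraepithelial lymphocytes (IELs), the unconventional αβ T cells of the gut lining that carry CD8α without CD8β. The genes were chosen by name, as 40 members of the protein folding and folding stress machinery. They comprise 13 cytosolic and mitochondrial chaperones, 16 genes of the endoplasmic reticulum (ER) and 11 stress transcription factors, sensors and effectors. Of the 40, 39 had a probe, out of 20887 named genes on the array, and all 39 were well above background on both arrays. Hspa1b had no probe that could be matched to it.

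The study compared IELs of the small intestine with and without Rbpj, the DNA-binding protein through which cleaved Notch activates its targets. The Control group had the genotype Rbpjf/f, and the RFF4 group had CD4-Cre Rbpjf/f, both on C57BL/6, aged 8 to 12 weeks, with male and female mice pooled. The labels name no Cre in the Control group, whereas the paper describes its controls as Rbpj+/+ mice, not floxed, that carry CD4-Cre, so the genotype of the controls is not settled here. CD4-Cre acts in T cells from the thymic stage that expresses CD4 onward, so that other cells of the gut keep Rbpj. RNA from several isolations was pooled, 150 ng was labelled with Cy3, and 1 Agilent array was hybridized per group. With 1 array per group, the difference between the groups has no replicate check and was not put to a test, and the number of arrays limits the precision of every value.

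Cells that accumulate unfolded protein in the cytosol release heat shock factor HSF1, which binds heat shock elements and activates the genes of HSP70, HSP90 and their cochaperones. In the ER the same task falls to the chaperone BiP, the product of Hspa5, and to the sensors PERK (Eif2ak3), IRE1 (Ern1) and ATF6. PERK phosphorylates the translation factor eIF2α and so raises ATF4, IRE1 splices Xbp1 mRNA, and ATF6 is cut to a free transcription factor, which together restore folding, remove misfolded protein or, through CHOP (Ddit3), lead to death. T cells draw on these pathways when they are activated and secrete, and chaperone genes are also known to respond to the handling of cells during isolation.

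Levels are given as log2 background-subtracted signal minus the 75th percentile of the gene spots of the same array, for the brightest probe of a gene, and differences as the array labelled RFF4 minus the Control array. Probes printed 10 times gave a technical SD of 0.16 for a log2 difference, which covers spot error and not the spread between mice. Values were recomputed with scaling to the median, with quantile normalization, which gives both arrays the same distribution, with cyclic loess, which removes trends with signal, with normexp, a model-based background correction, and with a spike-in scaling, which sets control RNAs added at labelling equal. Of the 59305 gene spots, 57.2% were well above background on the Control array and 49.7% on the array labelled RFF4. Both arrays lay on the same slide, and neither held a saturated spot (0 of each). Except with the spike-in scaling, where it differed by −0.80, Rbpj itself was not lower on the array labelled RFF4. Scaling to the median gave 0.15 for Rbpj. Its brightest probe had a log2 level of 1.96 on the Control array and 2.28 on the other, a difference of 0.32, and a dimmer probe went from −1.44 to −0.62. Whether these probes lie within the deleted exons is not given in the sources used here, so the signal does not check the genotype, and the second array is called the array labelled RFF4.

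Of the 9 measured T cell markers of the sort, each passed background on both arrays and 7 were higher on the array labelled RFF4, with a median log2 difference of 0.35 and a summed level of 1686 on the Control array against 2171. The direction of that median was not settled, since it was −0.03 under cyclic loess, −0.22 under quantile normalization and −0.78 under the spike-in scaling. Cd3e, a subunit of the T cell receptor complex, had a log2 level of 8.10 on the Control array and 8.44 on the array labelled RFF4, and Cd8a had 6.24 and 6.18. The largest difference on this list was that of Cd2, named after its value was seen, at 2.96 and 5.18, a difference of 2.22. Of 4 genes of T cells that the sort excluded, Cd8b1 was −3.52 on the Control array and not well above background on the other. Cd4 was well above background on both arrays, at 1.67 and 1.80. Foxp3, named after its value was seen, was −5.02 and −3.81, a difference of 1.20, near the lowest levels called well above background. Those lowest levels were −5.51 on the Control array and −4.29 on the other, and their part in this difference was not tested. The summed level of the list was 5.92 and 5.88. Markers of other cells were present on both arrays and were higher on the array labelled RFF4. All 16 epithelial markers were higher there, with a median log2 difference of 1.54 and a summed level, in multiples of the 75th percentile, of 164 on the Control array against 462. All 10 measured Paneth and goblet cell markers were higher, with a median of 1.78 and a summed level of 154 against 520. All 12 measured macrophage and dendritic cell markers were higher, with a median of 2.33 and a summed level of 76.3 against 170. The sum on the Control array rests mostly on Itgax and Itgam, named after their values were seen. Their log2 levels there were 5.52 and 4.32, and they differed by 0.20 and 0.92, the smallest differences of that list. Of 8 measured B and plasma cell markers 6 were higher, with summed levels of 29.2 and 61.4, although the B cell marker Cd79a was not well above background on either array. Of 11 pancreatic acinar markers 10 were higher, 6 of them as bounds, with a median of 2.56. Their summed levels of 19.3 and 15.8 rest mostly on Cela1, named after its value was seen, the 1 marker that was lower, and without it the sums were 0.452 and 4.65. Among the defining markers, on the log2 scale, Epcam went from 1.86 to 2.26 and Vil1 from 2.73 to 4.53. Lyz1 went from 4.33 to 6.02, Lyz2 from −3.67 to −1.25 and Jchain from 3.90 to 5.58. The sort took cells with TCRβ and CD8α and without TCRγδ, CD4 and CD8β, a gate meant to exclude these cell types. The paper states that the purity was checked and gives a lower limit for it, not complete purity. The part of the marker differences in the values of the stress genes was not tested. In pooled RNA of a sort, fewer cells of a type and less RNA per cell cannot be told apart.

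Most of the stress genes differed by less than 2-fold between the arrays, except with the spike-in scaling. Of the 39 measured members, 0 were higher by more than 2-fold on the array labelled RFF4, where 12.3% of the 13513 named genes with a difference were. The all-gene set holds dim genes entered as bounds, whereas no member was a bound. Its share was 11.7% once bounds were dropped, 9.22% with normexp and 30.0% with no filter and no bound. Whether the members differ from genes of matching signal was not tested. Beyond 4-fold lay 0 members in either direction, against 1.85% of all genes that were higher and 0.585% that were lower. Only Eif2ak3 (1 of 39, 2.56%) was more than 2-fold lower, against 5.05% of all genes. That count was 2 with scaling to the median (7.98% of all genes), with cyclic loess (4.84%) or with normexp (3.67%). It was 3 with quantile normalization (5.35% of all genes) and 29 with the spike-in scaling (56.7%). Beyond 1.5-fold, 3 members were higher (7.69%, against 20.1% of all genes), namely Hspa8, Atf3 and Ddit4. Another 5 were more than 1.5-fold lower (12.8%, against 15.0%), namely Hsph1, Edem1, Syvn1, Eif2ak3 and Trib3. In 10 members (25.6%, against 21.8% of all genes) the difference was within 1 technical SD of 0.

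More members were lower than higher, 25 of 39 (64.1%), while 51.1% of all genes were lower. Their median log2 difference was −0.16, with an interquartile range of −0.43 to 0.12, beside a median of −0.01 and a range of −0.37 to 0.44 over all genes. The split depended on the scaling, with 30 members lower after scaling to the median, 31 after quantile normalization, 30 after cyclic loess, 29 after normexp and all 39 with the spike-in scaling. The 3 families differed in their medians. Cytosolic and mitochondrial chaperones had a median of −0.06, ER genes −0.08 and stress transcription factors, sensors and effectors −0.45. Of the last family 9 of 11 were lower (81.8%), against 7 of 12 measured chaperones (58.3%) and 9 of 16 ER genes (56.2%). These shares describe 1 pair of arrays, and the families share genes under common regulators, so their members are not independent.

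**Figure D1:**
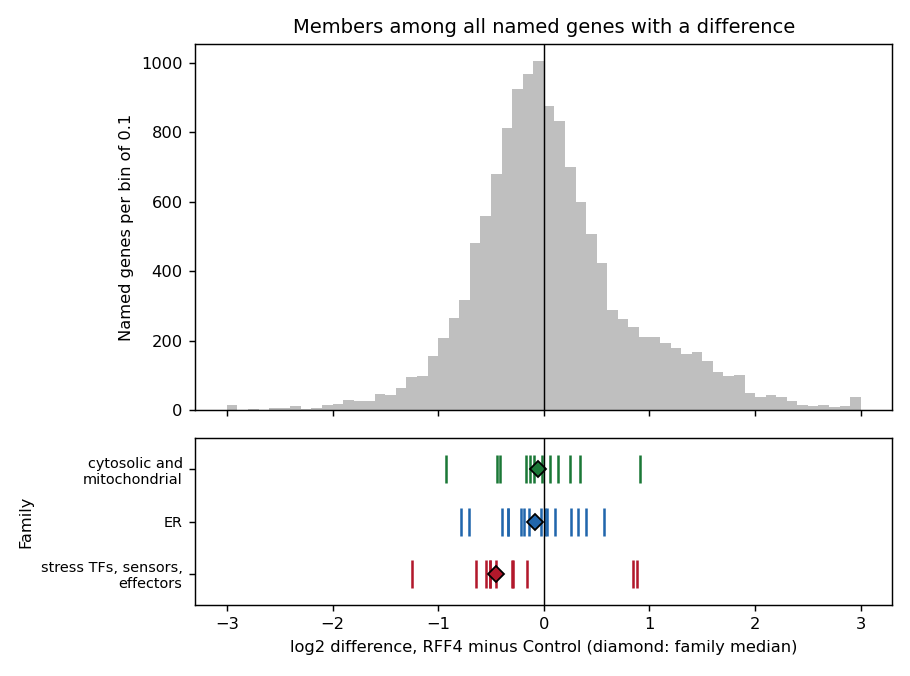
The upper panel counts all 13513 named genes with a difference by their log2 difference (array labelled RFF4 minus Control) in bins of 0.1, with values beyond 3 in either direction placed in the outermost bins. In the lower panel each tick is a member and each diamond a family median, at −0.06, −0.08 and −0.45, and all ticks lie between −1.24 and 0.91.

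Among the cytosolic chaperones the HSP70 machine had the largest differences, in opposite directions. Hspa8, the constitutive HSP70 of the cytosol, had a log2 level of 8.11 on the Control array and 9.01 on the array labelled RFF4, a difference of 0.91 or 1.88-fold. Its probes were not of one size, since the 2 dimmer ones differed by 0.10 and 0.33, and the brightest gave 0.32 after quantile normalization. Hspa1a, the stress-inducible HSP70, was 4.87 and 5.12, a difference of 0.25. Hspa1a and Hspa1b are near-identical neighbours, so that the signal of the Hspa1a probe cannot be assigned to one of the pair. The J-domain protein Dnajb1, an inducible cochaperone that hands clients to HSP70, was 6.78 and 7.13, a difference of 0.35 that became −0.15 after quantile normalization. Hsph1 moved the other way. This nucleotide exchange factor of the HSP110 family, which resets HSP70, was 5.78 on the Control array and 4.85 on the array labelled RFF4, a difference of −0.92 or 1.90-fold lower, and its other probe differed by −0.79. Hspa4, a related exchange factor, was 5.37 and 4.93 with its brightest probe, a difference of −0.44, whereas its 2 dimmer probes differed by 0.39 and 0.53. The direction of Hspa4 was therefore not settled by its probes. Dnaja1, another J-domain cochaperone, was 7.19 and 7.03, a difference of −0.16 near the technical SD, and its dimmer probe differed by 0.30.

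The remaining cytosolic members were the HSP90 pair and Hspb1. Hsp90aa1, the inducible HSP90, was 6.53 on the Control array and 6.40 on the other, and Hsp90ab1, the constitutive one, was 7.84 and 7.97. Both differences, −0.13 and 0.13, were within the technical SD, and that of Hsp90ab1 changed sign under 4 processing alternatives besides the spike-in scaling, being −0.47 after quantile normalization. The small heat shock protein Hspb1 was 1.33 and 0.91, a difference of −0.42. In mitochondria all 3 members lay within the technical SD. Hspa9, the HSP70 that pulls imported protein into the matrix, was 3.60 and 3.58, a difference of −0.02. Hspd1 and Hspe1, which form the HSP60 and HSP10 chaperonin, differed by −0.10 (5.58 and 5.48) and 0.06 (5.36 and 5.42).

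**Figure D2:**
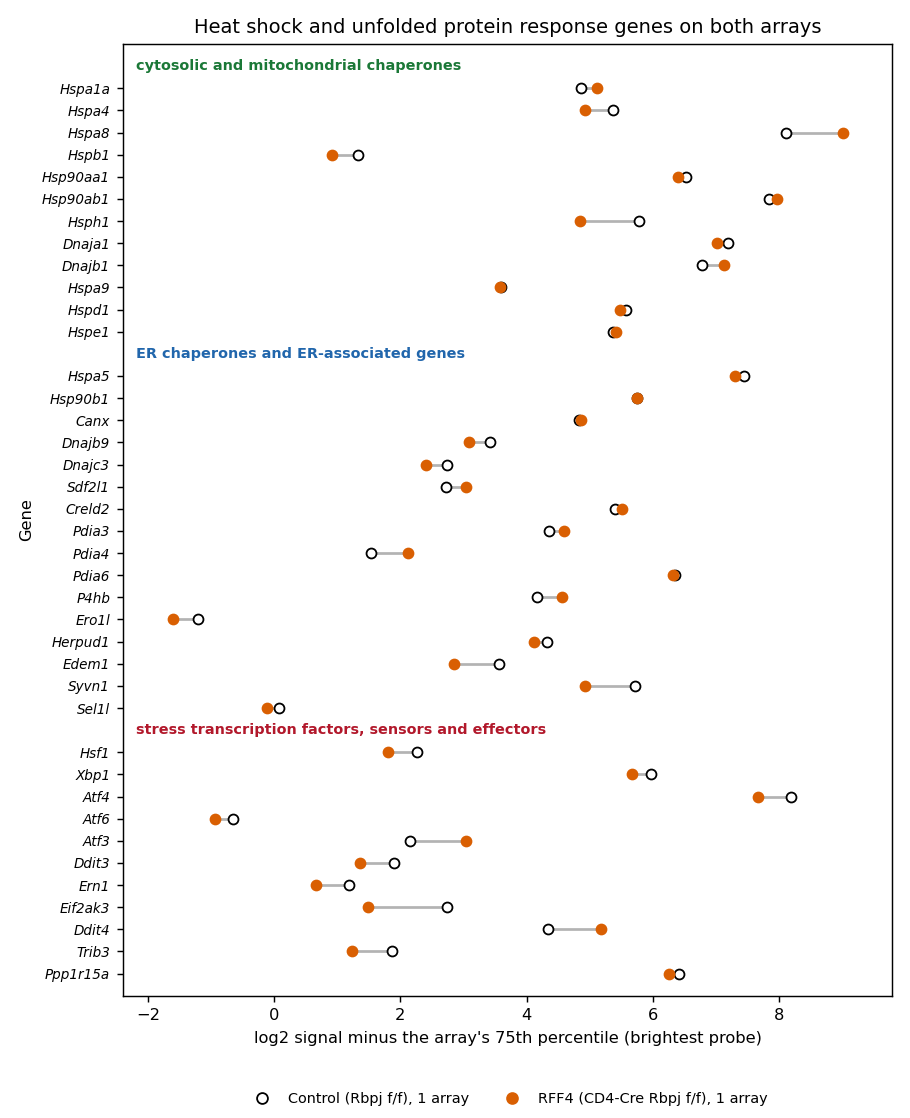
Log2 level of each measured member, relative to the 75th percentile of its array, on the Control array (open circles) and on the array labelled RFF4 (filled circles), with 1 array per group and no error bar. The pairs lie close together for most genes, and the widest gaps are those of Eif2ak3, Hsph1, Hspa8 and Atf3. Levels of different genes come from different probes and are not comparable.

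Heat shock elements were looked for in the promoters of RefSeq (GRCm38.p6, 250 bases before to 50 after the start), which held 34 of the 40 members. The inverted pair GAANNTTC, which reads the same on both strands, was present in 7 members (20.6%, Dnaja1, Hspa1a, Hspa1b, Hspb1, Hspd1, Hspe1 and Hsph1) and in 9.04% of all 27025 promoters. The longer run GAANNTTCNNGAA, searched on both strands and containing the pair, was present in Hspd1, Hspe1 and Hsph1, and in 0.662% of promoters. Hspd1 and Hspe1 are transcribed away from each other, and both lines printed here are the same stretch of DNA read on opposite strands. They are shown with Hspa1a because these are the targets by which the heat shock response is usually read, with the element in capitals.
Hspd1, chr1:55088047-55088083, minus strand: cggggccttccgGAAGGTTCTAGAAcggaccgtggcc
Hspe1, chr1:55088047-55088083, plus strand: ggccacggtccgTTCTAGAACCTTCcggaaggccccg
Hspa1a, chr17:34972241-34972272, minus strand: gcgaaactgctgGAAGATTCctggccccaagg

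The members with such letters did not move together. Of the 6 measured, 4 were lower and 2 higher, where 51.1% of all genes were lower. Their median was −0.13, from Hsph1 at −0.92 to Hspa1a at 0.25. The letters of Hsph1 lie after the start. Across all 770 measured genes with the pair, the median log2 difference was 0.02. Hspa1b carried the same printed stretch as Hspa1a, at chr17:34959323-34959354. Hsf1, whose product binds these elements, was itself lower, with a log2 level of 2.26 on the Control array and 1.81 on the array labelled RFF4, a difference of −0.45. HSF1 is regulated mainly as a protein, which an array does not measure.

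Of the 7 chaperones and cochaperones of the ER, 4 had nearly equal levels on both arrays. Hspa5, which encodes BiP, the general ER chaperone and brake on the stress sensors, had a log2 level of 7.45 on the Control array and 7.31 on the array labelled RFF4, a difference of −0.14. It depended on the processing, being −0.67 after quantile normalization, −0.47 after cyclic loess and −0.35 after normexp. Hsp90b1, the ER member of the HSP90 family, was 5.75 on both arrays, with a difference of 0.0068. Canx, a membrane chaperone that holds newly glycosylated proteins, was 4.83 and 4.86, and Creld2, an ER stress-induced factor, was 5.41 and 5.51. These 4 differences were within the technical SD of 0.16 in the processing used. Dnajb9 and Dnajc3, J-domain partners of BiP, were lower by more than 2 times the technical SD. Dnajb9 was 3.42 and 3.08, a difference of −0.34, with a dimmer probe at −0.04, and Dnajc3 was 2.73 and 2.40, a difference of −0.34. Sdf2l1, a further BiP partner, was 2.72 and 3.04, a difference of 0.32.

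Of the enzymes that form disulfide bonds, 3 were higher on the array labelled RFF4. Pdia4 was 1.54 on the Control array and 2.11 on the other, a difference of 0.57 or 1.49-fold, the largest among the 16 ER members in that direction. P4hb, the classical protein disulfide isomerase, was 4.16 and 4.56, a difference of 0.40. Pdia3, which works with calnexin and in the loading of MHC class I, was 4.35 and 4.60, a difference of 0.25. These kept their sign under every alternative except the spike-in scaling. Pdia6 was 6.35 and 6.32, a difference of −0.03. Ero1l (Ero1a in RefSeq), the oxidase that recharges the isomerases, was −1.21 and −1.60, a difference of −0.39, and was near 0 (0.04) after normexp correction.

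The 4 members of ER-associated degradation, which extracts misfolded proteins for the proteasome, were lower (4 of 4, where 51.1% of all genes were lower). Of the 20 other genes of degradation and translocation, 12 were higher and 8 lower, with a median of 0.08 that became −0.10 with scaling to the median, −0.11 with normexp and −0.01 with cyclic loess. Syvn1, the ubiquitin ligase HRD1, had a log2 level of 5.71 on the Control array and 4.93 on the array labelled RFF4, a difference of −0.78 or 1.72-fold lower. Edem1, a lectin-like protein that delivers misfolded glycoproteins to this pathway, was 3.56 and 2.85, a difference of −0.70 or 1.63-fold lower. Both differences were more than 4 times the technical SD. Herpud1, a membrane adaptor of the ligase complex, was 4.33 and 4.11, and Sel1l, the partner that stabilizes HRD1, was 0.07 and −0.11. Their differences of −0.22 and −0.19 were little above the technical SD.

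**Figure D3:**
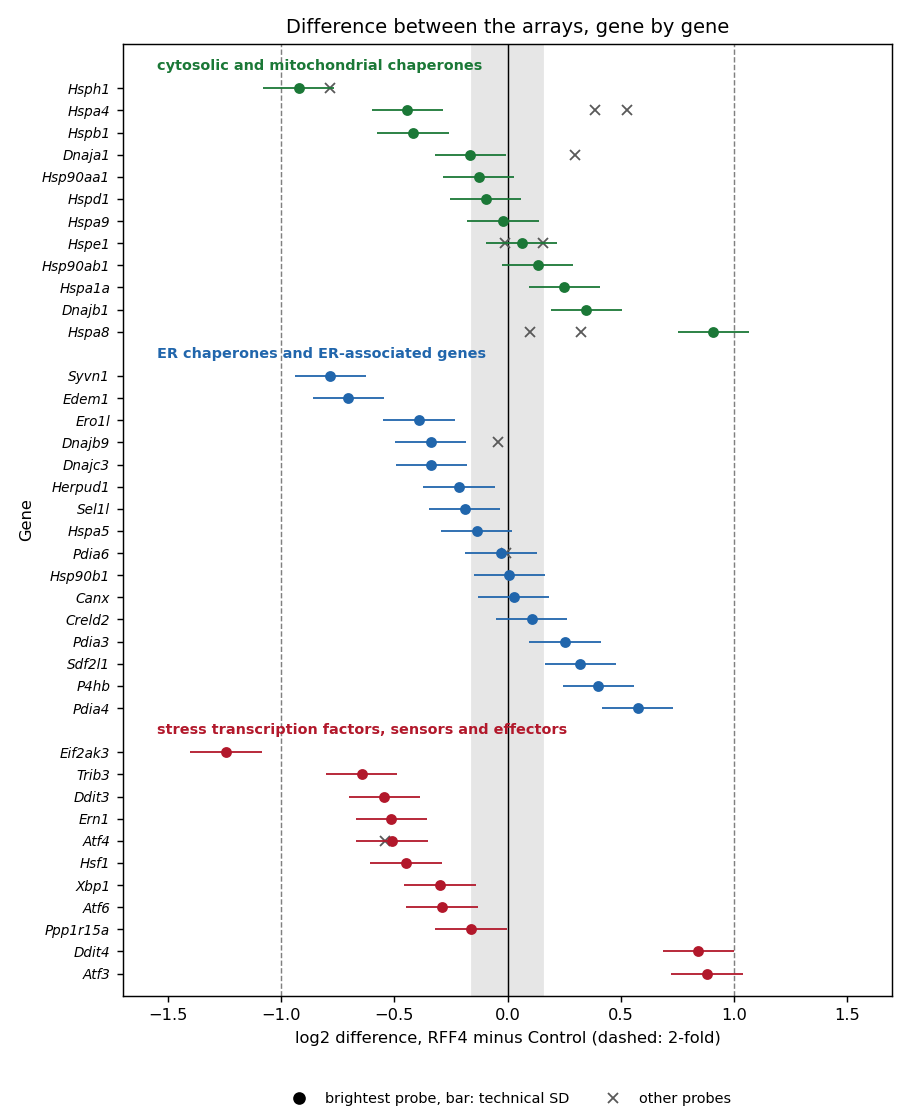
Log2 difference of each measured member (array labelled RFF4 minus Control), sorted within its family. Points are the brightest probe with a bar of 1 technical SD (0.16) to each side, crosses are the other probes of the gene, the grey band is 1 technical SD around 0 and dashed lines mark 2-fold. Eif2ak3 alone lies beyond a dashed line, and the crosses of Hspa4 and Dnaja1, and by a small margin 1 of Hspe1 (−0.01), lie on the other side of 0 from the brightest probe.

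The ER stress response element, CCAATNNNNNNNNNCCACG, through which ATF6 and XBP1 are known to act, was searched on both strands. It was present in 7 of the 34 members with a promoter (20.6%) and in 0.137% of all 27025 promoters, 37 genes in number. Each is printed here, with the element in capitals, since these promoters join the ER chaperones to the degradation gene Syvn1. Coordinates are those of GRCm38.p6, each sequence reads in the direction of transcription, and the first of the 2 elements of Hsp90b1 is given.
Hspa5, chr2:34772013-34772055, plus strand: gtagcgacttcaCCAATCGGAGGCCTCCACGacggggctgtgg
Hsp90b1, chr10:86705626-86705668, minus strand: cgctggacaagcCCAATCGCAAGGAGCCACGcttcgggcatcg
Canx, chr11:50325788-50325830, minus strand: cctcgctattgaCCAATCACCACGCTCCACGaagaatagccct
Creld2, chr15:88819508-88819550, plus strand: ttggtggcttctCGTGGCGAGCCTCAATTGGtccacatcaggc
Dnajc3, chr14:118937815-118937857, plus strand: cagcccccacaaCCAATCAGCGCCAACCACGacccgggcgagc
Pdia6, chr12:17266479-17266521, plus strand: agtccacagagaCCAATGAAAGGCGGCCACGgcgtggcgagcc
Syvn1, chr19:6046520-6046562, plus strand: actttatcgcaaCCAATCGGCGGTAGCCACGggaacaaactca

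The element of Creld2 lies on the opposite strand. The 7 genes did not share a direction, as 4 were lower and 3 higher, where 51.1% of all genes were lower. Their median log2 difference was −0.03, and 5 of them lay within the technical SD. Dnajc3 (−0.34) and Syvn1 (−0.78) were the exceptions. Of the 37 genes with the element 17 could be measured, 9 higher and 8 lower, with a median of 0.0068. A match of letters is a description of the promoter and not evidence that it is bound in these cells.

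The stress sensors and transcription factors were lower on the array labelled RFF4, apart from Atf3. Eif2ak3, which encodes PERK, had a log2 level of 2.73 on the Control array and 1.49 on the array labelled RFF4. This difference of −1.24, or 2.37-fold lower, was the largest of any member and 7.90 times the technical SD, and it ranged from −1.42 to −1.18 over the alternatives without the spike-in scaling. The gene has 1 probe, so no other probe bears on it. Ern1, which encodes IRE1, was 1.18 and 0.66, a difference of −0.51. Atf6, the sensor that is also a transcription factor, was dim on both arrays at −0.65 and −0.94, a difference of −0.29. All 3 sensors of the ER were thus lower, where 51.1% of all genes were lower, by amounts from 1.22-fold to 2.37-fold. With normexp the difference of Atf6 was −0.16, near the technical SD.

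The members that act downstream of PERK included lower and higher genes. Atf4, translated when eIF2α is phosphorylated, had log2 levels of 8.19 on the Control array and 7.67 on the array labelled RFF4. This was a difference of −0.51, and its dimmer probe gave −0.54. After quantile normalization the difference was −1.10. Ddit3, which encodes the proapoptotic factor CHOP, was 1.90 and 1.36, a difference of −0.54 or 1.46-fold lower. Trib3, a pseudokinase induced by ATF4 and CHOP, was 1.87 and 1.23, a difference of −0.64 or 1.56-fold lower. Ppp1r15a, the phosphatase subunit GADD34 that ends the response by acting on eIF2α, was 6.41 and 6.25, a difference of −0.16. Atf3, an early stress factor that ATF4 also induces, differed from these members in direction, at 2.16 and 3.04, a difference of 0.88 or 1.84-fold higher. Xbp1, the substrate of IRE1, was 5.97 and 5.67, a difference of −0.30. The signal does not separate spliced from unspliced Xbp1 mRNA.

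Ddit4, also known as REDD1, an inhibitor of mTORC1 that responds to energy stress, glucocorticoids and ATF4, was 4.33 on the Control array and 5.18 on the array labelled RFF4, a difference of 0.84 or 1.79-fold higher. Atf3 and Ddit4 were the only higher genes in this family. Atf3 is also an immediate early gene, and the 10 genes on a list of immediate early genes had a median log2 difference of 0.24, with 8 of them higher where 48.9% of all genes were, and a summed level of 314 on the Control array and 396 on the other. Their median was 0.07 with scaling to the median, 0.03 with normexp and −0.88 with the spike-in scaling. The part of this in the difference of Atf3 was not tested.

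The amino acid response element bound by ATF4, searched on both strands as TGATGNAAN, was found in Atf3, Herpud1 and Trib3 (8.82% of members) and in 4.50% of all promoters. That of Trib3 lies after the start. The letters of Atf3 and Herpud1, which lie before the start, are shown, each on the opposite strand and with the element in capitals. The 2 genes differed in direction, at 0.88 and −0.22.
Atf3, chr1:191183424-191183456, minus strand: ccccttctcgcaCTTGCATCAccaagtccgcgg
Herpud1, chr8:94386304-94386336, plus strand: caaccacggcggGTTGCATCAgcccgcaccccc

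Letters of the RBPJ site, GTGGGAA on either strand, were present in 2 members with a promoter (5.88%), Hspb1 and Pdia3, and in 7.25% of all promoters. They are shown because Rbpj is the gene the study deleted, again with the site in capitals. Hspb1 differed by −0.42 and Pdia3 by 0.25, and the 761 measured genes with these letters had a median of −0.01.
Hspb1, chr5:135887735-135887765, plus strand: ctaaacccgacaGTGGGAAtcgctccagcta
Pdia3, chr2:121413722-121413752, plus strand: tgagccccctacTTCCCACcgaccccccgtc

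**Figure D4:**
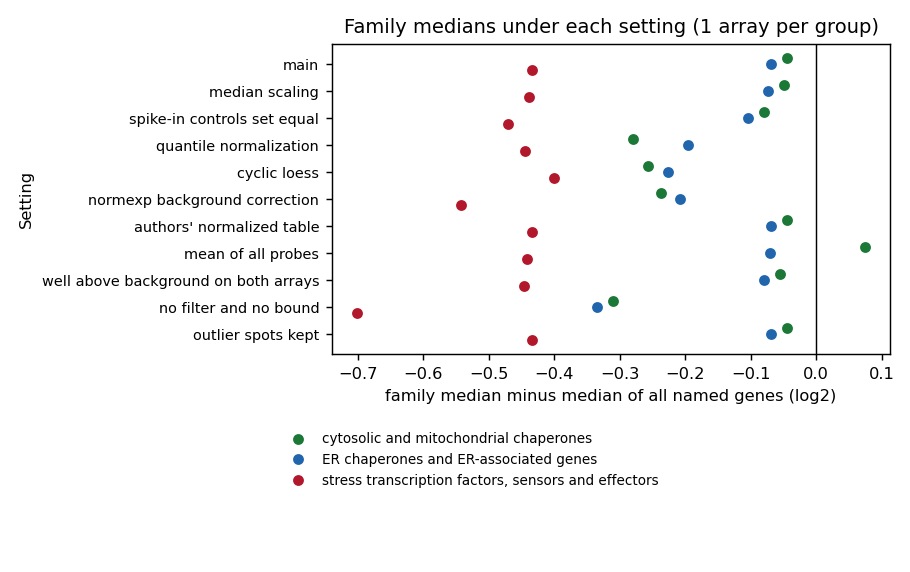
Median log2 difference of each family minus the median of all named genes, under the processing used and 10 alternatives. The stress transcription factors, sensors and effectors lie at or below −0.40 in each setting, whereas the chaperones of the cytosol and mitochondria lie between −0.31 and 0.07 and the ER genes between −0.34 and −0.07.

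Against the median of all genes, the family of transcription factors, sensors and effectors was lower by 0.43 on the log2 scale, with 9 of its 11 genes below that median under each of the 10 alternatives. The all-gene median itself shifted by −0.17 with scaling to the median, by −1.09 with the spike-in scaling and by 0.27 with no filter and no bound, where 20887 genes entered. Of the 25 lower members 22 kept their sign in the 9 alternatives without the spike-in scaling, the exceptions being Hspa4, Dnaja1 and Ero1l. Of the 14 higher members 8 did, the exceptions being Hsp90ab1, Dnajb1, Hspe1, Hsp90b1, Canx and Creld2.

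Other genes of these pathways, listed by name, did not share a direction. Of 110 listed genes all but 3 were measured, 58 higher and 49 lower, with a median log2 difference of 0.05, where 48.9% of all genes were higher. The split was 39 and 68 with scaling to the median, where 37.3% of all genes were higher. It was 40 and 67 with normexp, where 49.4% of all genes were higher. Among them 8 (7.48%) exceeded a 2-fold difference upward and 2 (1.87%) downward, against 12.3% and 5.05% of all genes. The 8 became 5 with scaling to the median (9.68% of all genes), 4 with normexp (9.22%) and 1, Chac1, with the spike-in scaling (1.39%). The 8 subunits of the chaperonin TRiC, which folds actin and tubulin, lay between −0.06 and 0.23 with a median of 0.05 that turned negative with 5 alternatives, from −0.0080 with cyclic loess to −0.12 with scaling to the median and −1.07 with the spike-in scaling. The 26 measured cytosolic chaperones and cochaperones had a median of −0.13, and the 8 mitochondrial chaperones and proteases had −0.06, or 0.04 with cyclic loess. The 16 other ER chaperones and folding enzymes had a median of 0.19, which was 0.01 with scaling to the median, 0.08 with normexp and −0.93 with the spike-in scaling, and the 20 genes of degradation and translocation had 0.08. The 29 measured regulators of the integrated stress response and of the unfolded protein response had 0.15, with 16 higher, which became −0.02 with scaling to the median, −0.0029 with normexp and −0.97 with the spike-in scaling. Of these regulators 6 (20.7%) were higher by over 2-fold, beside 12.3% of all genes, but 3 (10.3%) with normexp, beside 9.22%, and 1 with the spike-in scaling. The members among the stress transcription factors, sensors and effectors had a median of −0.45.

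The genes beyond 2-fold are given here one by one. Chac1, a glutathione-degrading enzyme induced through ATF4, had a log2 level of −3.66 on the Control array and −1.38 on the array labelled RFF4, a difference of 2.29 or 4.88-fold. Nupr1, a small stress-induced nuclear protein, was −2.05 and −0.08, a difference of 1.97, and Asns, the asparagine synthetase induced through ATF4, was 1.18 and 2.26, a difference of 1.08. Chac1, Nupr1 and Asns were higher, whereas Atf4, Ddit3 and Trib3 were lower. Other genes of amino acid metabolism and transport on the same list, named after their values were seen, differed less, with Psat1 at 0.25, Phgdh at −0.03 and Slc3a2 at −0.41. Pdia5, a disulfide isomerase, was −1.94 and 0.00057, a difference of 1.94. Vldlr, a lipoprotein receptor, was not well above background on the Control array and was at least 2.46-fold higher on the other, a bound of 1.30 on the log2 scale that became 0.88 with cyclic loess, 0.82 with its probes averaged and 0.18 with the spike-in scaling. Ern2, the form of IRE1 found in gut epithelium, was −3.87 and −2.57, a difference of 1.30. Creb3l3, a membrane-bound factor of liver and intestine, was 1.05 and 2.21, a difference of 1.16. Beside these, 13 of the 16 epithelial markers and all 10 measured Paneth and goblet markers were higher by over 2-fold, and the part of those cells in the 8 genes was not tested. Cryab, a small heat shock protein, was −2.77 and −1.69, a difference of 1.09. The 2 lower genes were Creb3l1, a membrane-bound factor related to ATF6, at 2.14 and 0.66, a difference of −1.48, and Edem3, which trims mannose from misfolded glycoproteins, at 1.42 and 0.14, a difference of −1.28. Edem1 also was lower, whereas Edem2, named after its value was seen, was −0.69 and −0.47, a difference of 0.22. Cryab, Creb3l3 and Asns were below 2-fold with scaling to the median, and these and Ern2 with normexp, while Cryab and Asns reversed under the spike-in scaling.

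**Figure D5:**
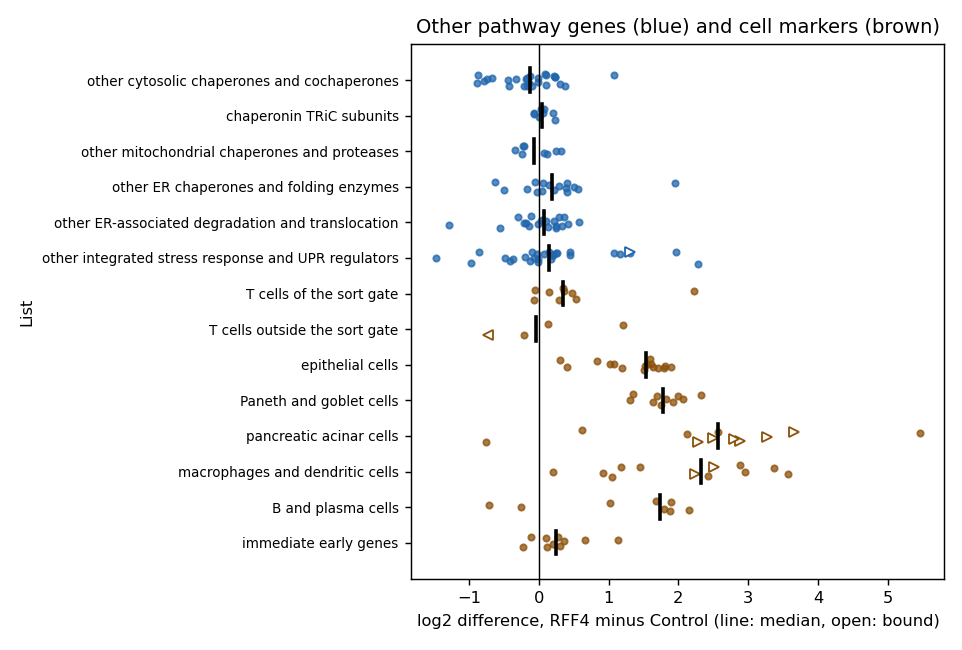
Log2 difference (array labelled RFF4 minus Control) of each gene in the lists of other pathway genes (blue) and cell type markers (brown). Lines are list medians, and open triangles are bounds, pointing away from 0, for genes not well above background on 1 array. In the processing used, the pathway lists centre between −0.13 and 0.19, and the lists of epithelial, Paneth and goblet, pancreatic, macrophage and plasma cell markers centre between 1.54 and 2.56.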

How the data were processed

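RNA of TCRαβ+CD8αα+ IELs was measured on 1 Agilent array for each of 2 groups. The deposited intensity of each spot came from the authors' scanner software (Agilent Feature Extraction 10.7.1.1, per the labels), with background subtracted and no scaling between arrays. The authors also deposited a table of normalized values, of another, relative scale, used only as an alternative. The paper's methods name GeneSpring for it.

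Log2 intensities were taken without control spots or outliers, and the 75th percentile of gene spots (8.99 for Control, 7.82 for RFF4) was subtracted. Spots of a probe were averaged. A probe counted as well above background where the software called 50% or more of its spots so. A gene took its brightest probe, and where it was dim on 1 array, a bound from the lowest signal well above background. Of 55679 probes 27509 were matched to RefSeq symbols (GRCm38.p6). All members, other pathway genes beyond 2-fold and the defining markers could be named. The members and lists were chosen with earlier results of these data known. The groups were compared by differences, without a test. The alternatives were the 10 drawn in the plot of family medians, with limma 3.58.1 (R 4.3.3) for quantile, cyclic loess and normexp (offset 50) and 8 spike-in probes for scaling. Python 3.11.15, numpy 2.4.6, pandas 2.3.3 and matplotlib 3.10.9 were used, and the steps were tested on simulated data. No spread between mice can be given, since the technical SD (probes with 10 spots, 245 on the Control array and 217 on the other) covers spot error only.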

Additional observations from a re-analysis of the deposited data

How the results depend on the processing

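No paired analysis was possible because each group has 1 array, and for the same reason no replicate could be left out. A value counted as moved when it changed by more than the technical SD of 0.16, or a count by more than 1.5 times. With scaling to the median, the median difference was −0.34 for all members, −0.23 for cytosolic and mitochondrial chaperones, −0.26 for ER genes and −0.62 for stress transcription factors, sensors and effectors, and Rbpj was 0.15. With the spike-in controls set equal these were −1.28, −1.18, −1.21, −1.57 and −0.80, and Cryab (−0.0365) and Asns (−0.0425) reversed. Quantile normalization gave −0.34 for all members, −0.33 for the cytosolic and mitochondrial chaperones and −0.24 for ER genes. For the same chaperones cyclic loess gave −0.26 and normexp −0.25. Rbpj was 0.57 with its probes averaged. Members more than 2-fold lower, 1 in the report, numbered 2 with scaling to the median, 3 with quantile normalization, 2 with cyclic loess, 2 with normexp and 29 with the spike-in scaling. In the same order, the shares of all genes were 7.98%, 5.35%, 4.84%, 3.67% and 56.7%. Hsph1 was the added gene in the settings with 2, and Hsph1 (−1.09) and Atf4 (−1.10) with quantile normalization. No member was more than 2-fold higher in any setting (0 in each). The cause of these changes was not tested. Of 39 single members, 0 moved by less than the technical SD with scaling to the median or with the spike-in scaling. The number was 24 with quantile normalization, 23 with cyclic loess, 12 with normexp and 36 with the mean of probes. All 39 moved by less than the technical SD with the authors' normalized table, with genes well above background on both arrays, with no filter and with outlier spots kept. The arrays give signals and no counts, and dim members such as Ero1l, Atf6 and Sel1l rest on signals nearer to background.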
